A study of Mus musculus with 6 samples.

Results

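The genes described here process antigen for MHC class I: B2m, Tap1, Tap2, Tapbp, Psmb8, Psmb9, Psmb10, Psme1, Psme2 and Nlrc5. They were taken as every probe set of the array annotated to one of these 10 genes, which gave 16 of the 45101 probe sets. For 9 of the genes at least 1 probe set was annotated to that gene alone. The only probe set of Psme2 was annotated to Psme2b as well, so its signal is given for both together and assigned to neither.

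The arrays measured RNA of CD8 T cells that had infiltrated tumours of the mouse fibrosarcoma line MCA-205 in male C57BL/6 mice. The mice carried an Eomes-GFP reporter, and Eomes encodes a T-box factor that acts in effector and memory T cells. The 3 Eomes+ arrays hold the GFP-positive cells and the 3 Eomes- arrays the GFP-negative cells. All mice had been treated with aOX40, against a costimulatory receptor (250 ug, days 12 and 16), and aCTLA-4, against an inhibitory receptor (200 ug, days 12, 14 and 16), and both fractions were taken on day 19. Untreated mice were not analysed here. The series' design text gives 3 independent experiments. The labels tie neither a replicate number to an experiment nor an array to an animal, so a p-value covers the spread between these samples, whatever its source.

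Values are log2 signals, in which a difference of 1 is a doubling. Eomes was higher on every Eomes+ array than on every Eomes- array for both of its probe sets, by 3.15 and 2.86 log2. Even so, neither had an adjusted p under 0.05 (limma, unadjusted p = 0.0017 and 0.0109). Failing this test therefore does not show that a gene was equal in the fractions. The 8 CD8 T cell marker genes with a probe set, of 10 listed, lay above the filter level on all 6 arrays, which matches the label. RNA of other cells was present too. The mean of 13 tumour and fibroblast markers ranged from 8.79 to 11.70 log2 on Eomes+ arrays and from 8.85 to 11.69 on Eomes- arrays. Thy1, listed with them, was taken out after its values were seen, because mouse T cells express it strongly. The mean of 14 macrophage and monocyte markers ranged from 8.40 to 10.74 log2 on Eomes+ arrays and from 8.09 to 10.71 on Eomes- arrays. Class I processing genes are active in nearly all nucleated cells, so these signals add up all the cells on an array, and fewer cells of a type cannot be told apart from less RNA per cell.

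Nearly every cell shows fragments of its own proteins on MHC class I molecules, and CD8 T cells both read these complexes on their targets and carry them. Proteasomes cut the proteins, and interferon-gamma swaps the catalytic subunits of the core for the immunoproteasome subunits encoded by Psmb8, Psmb9 and Psmb10. The activator encoded by Psme1 and Psme2 opens the core. The Tap1 and Tap2 products form the pump that carries peptides into the endoplasmic reticulum, where tapasin, encoded by Tapbp, holds an empty class I molecule beside it. B2m encodes the light chain of every class I molecule, and Nlrc5 the transactivator that switches many of these genes on.

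Psmb9, Tap1, Psmb8 and Tap2 lie next to each other in that order within the mouse MHC, with no other gene of the RefSeq table between them, and Psmb9 and Tap1 are read in opposite directions from a shared stretch of 225 bases. That stretch is shown because it lies between Psmb9, the one tested probe set of the genes with separate groups, and Tap1, whose brightest probe set had group means within 0.01 log2 of each other. The upstream sequences of Psmb8 and B2m are shown beside it as those with an interferon-type motif. All 3 are from RefSeq, assembly GRCm38.p6, plus strand, and end or begin at the base before a gene start. Capitals mark matches to 3 motifs, searched on both strands: GAAANNGAA, the core of the interferon-stimulated response element, TTCNNNGAA, the site type bound by STAT factors, and CCAAT, the site type bound by NF-Y.
Psmb9 to Tap1, chr17:34187331-34187555: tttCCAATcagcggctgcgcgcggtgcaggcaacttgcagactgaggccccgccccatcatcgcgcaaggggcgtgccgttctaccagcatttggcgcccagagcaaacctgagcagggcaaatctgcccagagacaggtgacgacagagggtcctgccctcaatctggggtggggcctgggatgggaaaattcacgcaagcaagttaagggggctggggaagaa
Psmb8 upstream, chr17:34197945-34198194: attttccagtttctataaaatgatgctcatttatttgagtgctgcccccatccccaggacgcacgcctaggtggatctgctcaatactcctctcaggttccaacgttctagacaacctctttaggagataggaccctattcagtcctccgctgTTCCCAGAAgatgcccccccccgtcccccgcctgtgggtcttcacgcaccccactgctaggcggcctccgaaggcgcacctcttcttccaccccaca
B2m upstream, chr2:122147437-122147686: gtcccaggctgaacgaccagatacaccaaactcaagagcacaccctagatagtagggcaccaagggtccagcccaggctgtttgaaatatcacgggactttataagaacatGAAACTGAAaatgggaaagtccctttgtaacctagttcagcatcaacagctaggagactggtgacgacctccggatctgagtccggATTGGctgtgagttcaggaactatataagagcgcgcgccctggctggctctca

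The stretch between Psmb9 and Tap1 held 1 CCAAT match and no match to the other motifs. Its first base is 8 bases before the Psmb9 start and 222 before the Tap1 start, counted along each gene. The Psmb8 window held 1 match to TTCNNNGAA, first base 97 before the start. The B2m window held 1 match to GAAANNGAA, first base 139 before the start, and 1 to CCAAT on the other strand, first base 53 before. Windows of 250 upstream bases were on file for 8 of the 10 genes (9 windows). Among these, GAAANNGAA occurred in 1, TTCNNNGAA in 1 and CCAAT in 4, against 7.13%, 7.02% and 33.8% of all 32851 windows. The CCAAT match between Psmb9 and Tap1 is counted in the windows of both genes, and the windows of Psme2 overlap. These are letter matches, which show no binding.

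No class I processing gene passed the test over all probe sets, and neither did Eomes, the gene sorted on. By the brightest probe set of each, 6 of the 10 genes differed between the fractions by under 0.1 log2, and the other 4 by -0.43 (Tap2), -0.27 (Psmb9), 0.25 (Nlrc5) and 0.24 (Psmb10). The 13 member probe sets above the filter on dim signal were tested, and the other 3 are given below as values. By limma, 0 of the 13 had an adjusted p under 0.05, against 0% of all 27766 probe sets tested. At an unadjusted p under 0.05 there was 1, Psmb9, against 3.37% of all probe sets. It was also the 1 probe set of the 13 whose groups did not overlap, where 8.06% of all tested probe sets did not. The mean was lower in Eomes+ for 9 of the 13, against 53.4% of all. The plot of signals by array gives all 6 values of each.

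**Figure D1:**
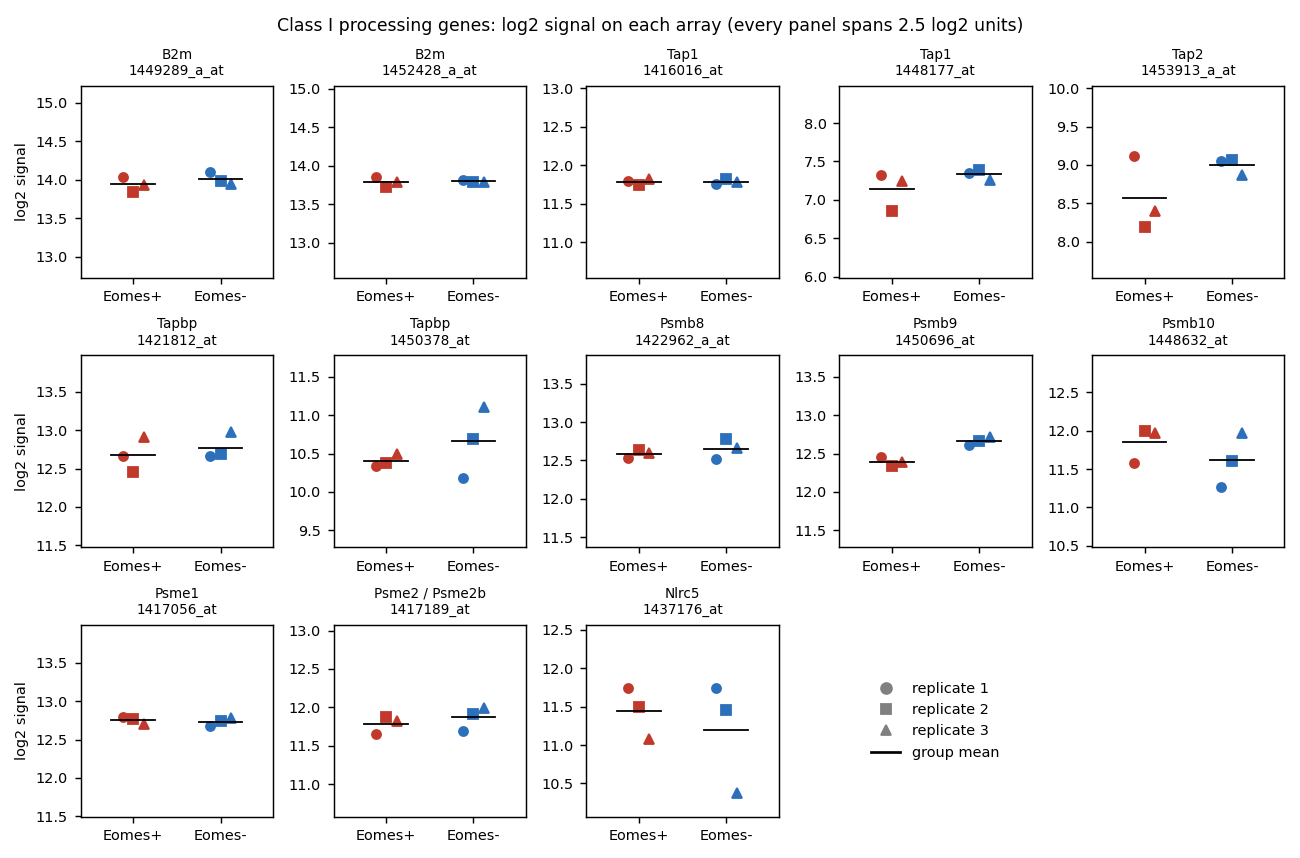
Log2 signal of the 13 tested probe sets on each array, Eomes+ (red) left of Eomes- (blue); the marker shape gives the replicate number, the line is the mean of 3 arrays, and every panel spans 2.5 log2 units. Only the Psmb9 panel has groups that do not overlap, and the Nlrc5 panel has the widest spread, with Eomes- replicate 3 lowest at 10.37.

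Over the 10 genes, taking the brightest probe set of each and the shared one for Psme2, the median difference was -0.07 log2, and over all 12571 genes tested it was -0.02. An absolute difference under 0.1 log2 was found for 30.2% of all genes tested. Without the shared probe set it was 5 of 9 genes, and the median difference was again -0.07. The median absolute difference was 0.09 log2 over the 10 genes and 0.18 over all genes tested. Brightness matters here, since 10 of the 13 probe sets were in the brightest 10% of those tested, where differences are small in general. Within those 10% the median absolute difference was 0.08 log2 for the 10 and 0.12 for all 2777. The median spread within a group was an SD of 0.10 log2 for the 10 and 0.23 for all 2777.

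Of the immunoproteasome subunits, Psmb9 was lower in Eomes+ cells on every array. Psmb9 encodes the subunit that takes the place of the Psmb6 product. Its signal was 12.46, 12.33 and 12.39 log2 on Eomes+ arrays 1, 2 and 3, against 12.61, 12.67 and 12.72 on Eomes- arrays 1, 2 and 3. The highest Eomes+ array lay below the lowest Eomes- array, and the arrays within each fraction lay close together. The means were 12.39 ± 0.06 log2 in Eomes+ and 12.66 ± 0.05 in Eomes- (SD, n = 3 each), which is 1.21-fold lower in Eomes+ (log2 difference -0.27, SE 0.09, 95% interval -0.49 to -0.06). Psmb9 did not pass correction (limma adjusted p = 1.00, unadjusted p = 0.0208), and 377 other tested probe sets had a p as small or smaller. Because the groups were separate, leaving out arrays could not turn the sign. With each array or both arrays of a replicate number left out, the log2 difference ranged from -0.33 to -0.24. The count of member probe sets at an unadjusted p under 0.05 did change. It was 0 without Eomes+ replicate 2, Eomes+ replicate 3, Eomes- replicate 2 or Eomes- replicate 3. Without both arrays of replicate 2 or of replicate 3 it was also 0, and without Eomes+ replicate 1 it was 2. Cell type markers also had means that differed between the fractions. CD8 T cell markers had a lower mean in Eomes+ for 8 of 8 tested genes (median -0.22 log2, Cd8a -0.58). Over all genes tested, 52.6% had a lower mean in Eomes+. Higher means in Eomes+ were found for 11 of 14 macrophage and monocyte genes (median 0.31), 11 of 12 tumour and fibroblast genes (0.22), 7 of 8 class II and dendritic cell genes (0.32) and 4 of 4 endothelial genes (0.37). The neutrophil list was split, with 2 of 4 genes higher, and so was the NK cell list, with 1 of 2. B cell genes were higher for 3 of 4 (median 0.32). CD4 and regulatory T cell genes had a lower mean in Eomes+ for 4 of 5 (median -0.34). Of these 5, Cd40lg had the largest difference (-1.70 log2) but lay above the filter level on only 3 of the 6 arrays. By array, the mean of the tumour and fibroblast list, without Thy1, was higher in Eomes+ mainly for replicate 2 (10.74 against 9.89 log2). For replicate 1 it was 8.79 against 8.85, and for replicate 3 11.70 against 11.69. None of these marker genes had an adjusted p under 0.05 (limma), and their part in the Psmb9 difference and in those of the other genes was not tested.

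Psmb8, whose product replaces that of Psmb5, differed by under 0.1 log2. It had 12.53, 12.63 and 12.60 log2 on Eomes+ arrays and 12.51, 12.78 and 12.66 on Eomes- arrays. The groups overlapped, and the difference was -0.07 log2 (SE 0.10, 95% interval -0.31 to 0.18). Psmb10, whose product replaces that of Psmb7, had 11.58, 12.00 and 11.97 log2 on Eomes+ arrays and 11.27, 11.60 and 11.97 on Eomes- arrays. It was thus higher in Eomes+ by 0.31 and 0.40 log2 for replicates 1 and 2 and by 0.0024 for replicate 3, with groups that overlapped (0.24 log2, SE 0.21, interval -0.27 to 0.75). It was the 1 tested probe set of the 13 with a higher value in Eomes+ for every replicate number, where 13.3% of all tested probe sets were.

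The log2 signal of each immunoproteasome subunit minus that of the subunit it replaces was taken within each array, to ask whether the pairs changed unequally. It is a ratio of probe signals, not of transcripts. Psmb9 minus Psmb6 gave 1.77, 1.10 and 1.02 log2 on Eomes+ arrays and 1.69, 1.47 and 1.13 on Eomes- arrays. Psmb8 minus Psmb5 averaged 2.25 ± 0.33 log2 in Eomes+ and 2.14 ± 0.22 in Eomes- (SD, n = 3 each). Psmb10 minus Psmb7 averaged 1.03 ± 0.38 log2 in Eomes+ and 0.68 ± 0.38 in Eomes- (SD, n = 3 each). The groups overlapped for all 3 ratios. Differences were 0.11, -0.13 and 0.35 log2 for the Psmb8, Psmb9 and Psmb10 ratios (two-sided exact permutation p = 0.7, 0.7 and 0.3, adjusted over the 3 ratios 0.7 for each). An exact permutation test of 3 against 3 cannot go below p = 0.1. Leaving out 1 array turned 2 of these signs: Psmb8 minus Psmb5 was -0.081 log2 without Eomes+ replicate 1, and Psmb9 minus Psmb6 was 0.0096 without Eomes+ replicate 3.

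Both activator probe sets differed by under 0.1 log2 too. Psme1 had 12.80, 12.77 and 12.71 log2 on Eomes+ arrays and 12.67, 12.74 and 12.78 on Eomes- arrays, a difference of 0.03 log2 (SE 0.08, interval -0.17 to 0.23). The probe set shared by Psme2 and Psme2b had 11.65, 11.87 and 11.82 log2 on Eomes+ arrays and 11.70, 11.91 and 11.99 on Eomes- arrays. It was lower in Eomes+ for each replicate number by under 0.2 log2, and the groups overlapped (-0.09 log2, SE 0.13, interval -0.40 to 0.23). In all, 4 of the 13 probe sets were lower in Eomes+ for every replicate number, against 17.9% of all tested: Psmb9, this one, and 1 each of B2m and Tap1.

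The peptide pump genes differed in how steady they were. Tap1, by its brightest probe set (1416016_at), had 11.80, 11.74 and 11.82 log2 on Eomes+ arrays and 11.75, 11.82 and 11.78 on Eomes- arrays. All 6 values fell within 0.08 log2, the narrowest range of the 13 tested probe sets, and the difference was 0.00 log2 (SE 0.11, interval -0.25 to 0.26). Psmb9 minus Tap1, the genes on either side of the shared stretch, came to 0.66, 0.59 and 0.57 log2 on Eomes+ arrays and 0.86, 0.85 and 0.93 on Eomes- arrays. These did not overlap, and since the pair was chosen after its values were seen, no test is given. With all Tap1 values within 0.08 log2, the subtraction largely restates the Psmb9 values and adds no separate observation.

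A dimmer Tap1 probe set (1448177_at) had 7.32, 6.85 and 7.25 log2 on Eomes+ arrays and 7.35, 7.39 and 7.26 on Eomes- arrays. Eomes+ replicate 2 was the low one (-0.19 log2, SE 0.25, interval -0.79 to 0.40). Both other Tap1 probe sets lay below the filter level on all 6 arrays, near background. Probe set 1449803_x_at, of the type open to cross-hybridisation, had 3.76, 3.83 and 3.77 log2 on Eomes+ arrays and 4.10, 4.10 and 4.18 on Eomes- arrays, groups that did not overlap. Probe set 1420274_at lay between 3.65 and 3.94 on the 6 arrays. The second Psmb8 probe set, 1444619_x_at, is also of the type open to cross-hybridisation. It too lay below the filter level on all 6 arrays, between 3.75 and 4.14. At this signal the values say little about the transcript.

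Tap2 had the largest difference among the brightest probe sets of the 10 genes, and the arrays of a fraction did not agree on it. It had 9.11, 8.19 and 8.40 log2 on Eomes+ arrays and 9.06, 9.07 and 8.87 on Eomes- arrays. Eomes+ replicates 2 and 3 lay below all Eomes- arrays, and Eomes+ replicate 1 lay above them. The means were 8.57 ± 0.48 log2 in Eomes+ and 8.997 ± 0.11 in Eomes- (SD, n = 3 each), a difference of -0.43 (SE 0.30, interval -1.14 to 0.28; limma adjusted p = 1.00).

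Tapbp had 12.67, 12.45 and 12.91 log2 on Eomes+ arrays and 12.66, 12.68 and 12.97 on Eomes- arrays (-0.09 log2, SE 0.15, interval -0.45 to 0.26). The replicate 3 array was the highest of each fraction. The other Tapbp probe set had 10.34, 10.37 and 10.49 log2 on Eomes+ arrays and 10.18, 10.69 and 11.11 on Eomes- arrays (-0.26 log2, SE 0.25, interval -0.86 to 0.35). Here the Eomes- arrays spread over nearly the whole range and the Eomes+ arrays lay inside it.

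B2m had 14.04, 13.85 and 13.94 log2 on Eomes+ arrays and 14.10, 13.98 and 13.94 on Eomes- arrays (1449289_a_at), a difference of -0.07 (SE 0.08, interval -0.25 to 0.11). The other B2m probe set (1452428_a_at) had 13.85, 13.72 and 13.79 log2 on Eomes+ arrays and 13.82, 13.79 and 13.79 on Eomes- arrays, a difference of -0.01 (SE 0.06, interval -0.16 to 0.13). On the array where they ranked lowest they stood at percentiles 99.8 and 99.8, and the highest value on any array was 14.95 log2. Whether saturation so near the top of the scale narrowed these differences was not tested.

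**Figure D2:**
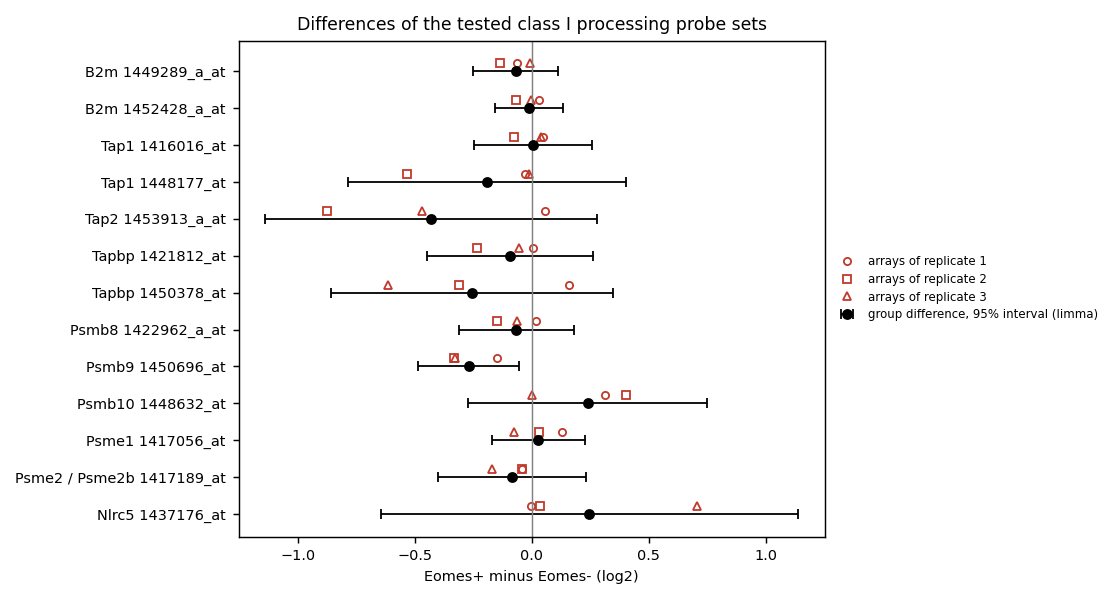
Eomes+ minus Eomes- in log2 for the 13 tested probe sets: black points are the differences of group means with the 95% interval of limma, and open red symbols the differences between arrays of the same replicate number. The Psmb9 interval (-0.49 to -0.06) is the only one that does not hold 0, with no correction for the number of probe sets; the Nlrc5 and Tap2 intervals are the widest.

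Nlrc5 was the least steady of the set. It had 11.74, 11.50 and 11.08 log2 on Eomes+ arrays and 11.74, 11.46 and 10.37 on Eomes- arrays. The fractions were within 0.04 log2 of each other for replicates 1 and 2, and for replicate 3 Eomes+ was 0.70 higher. The group difference of 0.25 log2 (SE 0.37, interval -0.65 to 1.14) rested on that array: it was -0.16 without Eomes- replicate 3 and 0.02 without both replicate 3 arrays.

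Several measures moved with replicate number 3. The CD8 T cell markers averaged 12.28, 12.03 and 10.92 log2 on Eomes+ arrays and 12.41, 12.43 and 11.25 on Eomes- arrays. The tumour and fibroblast markers, without Thy1, averaged 8.79, 10.74 and 11.70 log2 on Eomes+ arrays and 8.85, 9.89 and 11.69 on Eomes- arrays. T cell markers and Nlrc5 were thus lowest, and tumour markers highest, on the replicate 3 array of each fraction. In summed signal, as log2, the tumour and fibroblast list without Thy1 ranged from 13.52 to 15.98 on Eomes+ arrays and from 13.39 to 16.14 on Eomes- arrays (with it, from 14.36 to 16.10 on Eomes+ arrays and from 14.36 to 16.24 on Eomes- arrays), and the macrophage list from 13.19 to 15.36 on Eomes+ arrays and from 12.89 to 15.37 on Eomes- arrays. Of these 13 tumour and fibroblast genes 12 were above the filter on enough arrays to be tested, and 14 of 14 macrophage genes were. The part of this RNA in the Nlrc5 values was not tested. B2m and Tap1 moved over 0.26 and 0.08 log2 across the same arrays.

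**Figure D3:**
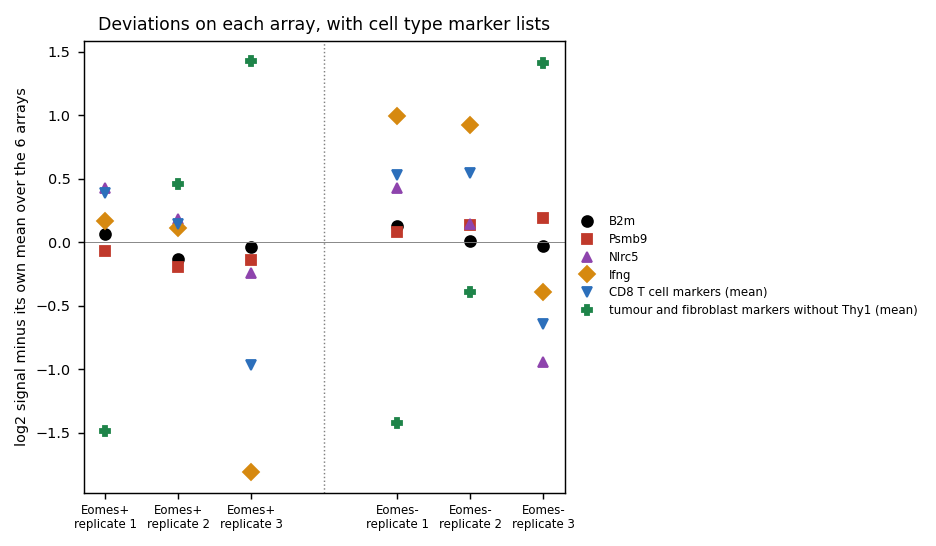
Deviation of each log2 signal from its own mean over the 6 arrays, for B2m, Psmb9, Nlrc5, Ifng and the mean of 2 marker lists, with Eomes+ arrays left and Eomes- arrays right. B2m stays within 0.26 log2, while Nlrc5, Ifng and the CD8 T cell markers are lowest, and the tumour and fibroblast markers without Thy1 highest, on the replicate 3 array of each fraction.

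Related genes of the pathway gave no call either. Over all genes tested, the share with a lower mean in Eomes+ was 52.6%, with an unadjusted p under 0.05 3.13%, with groups that did not overlap 7.71%, and past the adjusted threshold 0%. The count past the adjusted threshold was also 0 in each of the 5 lists below. Of 7 tested class I heavy chain genes 3 were higher and 4 lower (median -0.03 log2). H2-K1 and H2-D1 encode the classical heavy chains of this strain. H2-K1 differed by -0.03 log2 (SE 0.07), with 4 probe sets from -0.16 to 0.08, and H2-D1 by -0.10 (SE 0.12), with 8 probe sets from -0.16 to 0.15. These genes are near copies of each other, and their probe sets can share signal. H2-M3, a nonclassical chain that presents formylated peptides, differed by -0.10 log2 (SE 0.14) and Cd1d1, which presents lipids, by -0.47 (SE 0.58).

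H2-Q10 had the largest difference of the 7 heavy chain genes tested. It encodes a secreted class I chain known from mouse liver. Its probe set had 9.12, 8.96 and 7.55 log2 on Eomes+ arrays and 7.32, 7.31 and 6.02 on Eomes- arrays. The groups did not overlap (1.66 log2, SE 0.55; limma adjusted p = 1.00, unadjusted p = 0.0208). It was the 1 heavy chain gene of 7 with separate groups, and its signal may include that of other genes of the Qa family.

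Of 10 tested loading and trimming genes 5 were higher and 5 lower (median -0.04 log2), and 2 had separate groups. Canx, the calnexin gene, differed by -0.24 log2 (SE 0.16), although its other probe sets differed by 0.00 and 0.14. Bcap31, an export receptor of the endoplasmic reticulum, differed by 0.17 (SE 0.11) with its brightest probe set and by -0.14 with the other. Among chaperones of the loading complex, Calr differed by -0.12 (SE 0.14) and Pdia3 by -0.19 (SE 0.14). The trimming peptidase gene Erap1 differed by 0.23 (SE 0.23) and Tapbpl, a tapasin relative, by 0.16 (SE 0.21). The dimmer Tapbpl probe set differed by 0.40 with separate groups.

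Of 19 tested genes of the standard core proteasome and its assembly 11 were higher and 8 lower (median 0.01 log2). Separate groups were found for 3 of the 19, against 7.71% of all genes tested: Psma1 (-0.15), Psma2 (0.08) and Psma6 (0.16). The split rests on the brightest probe sets, and the sign could differ between probe sets of a gene. Psmb3 differed by 0.23 and -0.48, Psmb4 by 0.07 and -0.33, and Psma1 by -0.15 and 0.40. The catalytic subunit genes Psmb5, Psmb6 and Psmb7 differed by -0.18 (SE 0.27), -0.14 (SE 0.25) and -0.11 (SE 0.17). Psma6 had the smallest unadjusted p of the list by limma (log2 difference 0.16, SE 0.09), and its other probe sets differed by -0.06 and 0.05. Of 22 genes of the regulatory cap and other activators 7 were higher and 15 lower (median -0.09 log2). By brightest probe sets, 1 had separate groups: Psmc4, an ATPase of the cap, at 0.34 (SE 0.16). Psmd4, also of the cap, differed by -0.16 with its brightest probe set. Its dimmer ones differed by -0.66, with separate groups, and by -0.04.

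Of 21 tested genes of interferon input and class I regulation 12 were higher and 9 lower (median 0.05 log2), and 3 had separate groups. Ifng, the cytokine that induces the immunoproteasome, had 11.85, 11.79 and 9.87 log2 on Eomes+ arrays and 12.68, 12.60 and 11.29 on Eomes- arrays. It was lower in Eomes+ for each replicate number, and the groups overlapped through Eomes- replicate 3, which lay below Eomes+ replicates 1 and 2. Ifngr1, a chain of its receptor, differed by 0.24 log2 (SE 0.42) and Irf1, a factor it induces, by 0.42 (SE 0.29). Ifnar2, a chain of the type I interferon receptor, had 11.63, 11.41 and 11.36 log2 on Eomes+ arrays and 10.93, 11.20 and 11.05 on Eomes- arrays (0.41 log2, SE 0.15; limma adjusted p = 1.00, unadjusted p = 0.0304). Its groups did not overlap, and its other probe sets were also higher in Eomes+, by 0.61 and 1.16. Irf8 differed by -0.87 (SE 0.38), and its other probe set by -1.11 (limma unadjusted p = 0.0361), with groups that overlapped. Of the RFX complex, with which NLRC5 works at class I promoters, Rfx5 differed by 0.37 (SE 0.19) with separate groups and Rfxap by -0.54 (SE 0.28). Rfxank, of the same complex, differed by -0.29 (SE 0.27) with groups that overlapped, and its other probe sets by -0.36 and 0.14. Ciita, the class II counterpart of Nlrc5, differed by 0.26 (SE 0.39).

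**Figure D4:**
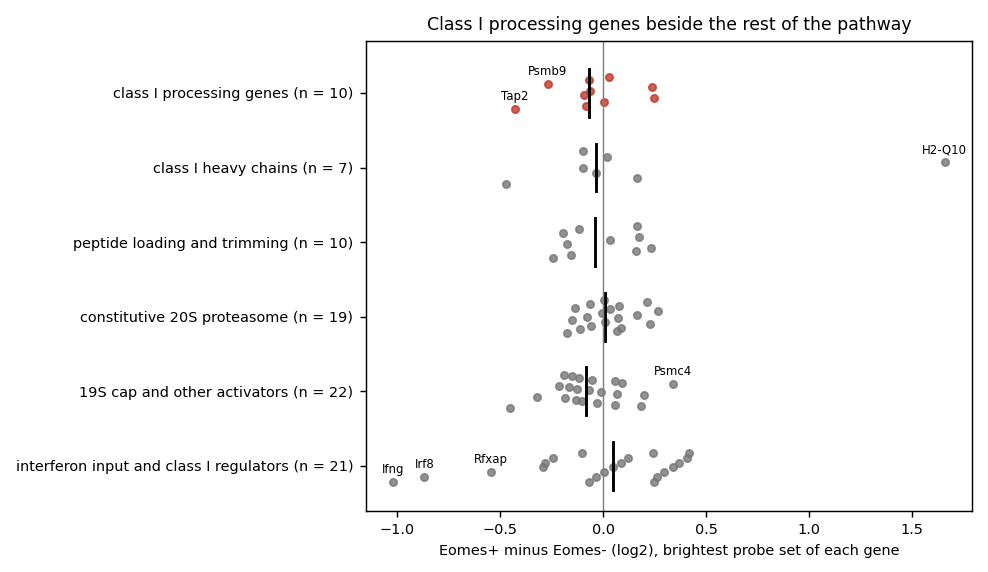
Eomes+ minus Eomes- in log2 for the brightest probe set of each gene, in red for the 10 class I processing genes and in grey for 5 lists of related genes; the black bar is the median of each list and the vertical offset of points has no meaning. Medians lie between -0.09 and 0.05, and H2-Q10 at 1.66 and Ifng at -1.02 lie farthest out.

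The mean of the 10 genes, each centred on its own mean, moved by little over the arrays, at 0.03, -0.07 and -0.04 log2 on Eomes+ arrays and 0.00, 0.07 and 0.00 on Eomes- arrays. Of 12562 other genes, those with the most similar pattern over the 6 arrays were Cenps, 4833420G17Rik, Agpat2, Brms1 and Neurod2 (Pearson r from 0.983 to 0.989), and those with the most opposed were Sh3tc1, Ficd and Tmem209 (r from -0.993 to -0.961). With 6 arrays that share cells and preparation, such values describe these arrays only.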

How the data were processed

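The authors deposited log2 signals of 45101 probe sets on 6 arrays, between 1.68 and 14.95. The log2 scale was read from the values. Biotin-labelled RNA had been extracted with Trizol, per the labels' protocols. The submitters' processing notes name MAS5 and Transcriptome Analysis Console, without versions or roles, and how the signals were summarised is not stated there. Array medians are nearly equal (6.35 to 6.42), so a shift shared by most genes would not be seen. The number of arrays limits the precision.

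Control probe sets (64) were left out. Gene names are those of the platform annotation, updated through the gene identifier in RefSeq (GRCm38.p6): 34945 probe sets had 1 symbol, of which 34741 matched, 932 had several and 9160 had none listed. The filter kept a probe set that exceeded the 40th percentile of at least 3 of the 6 arrays (27766 probe sets, 12571 genes). Groups came from the sample titles, and limma 3.58.1 (R 4.3.3) tested their difference (two-sided, intensity trend, Benjamini-Hochberg over all tested probe sets, threshold 0.05). Exact permutation tests used scipy 1.17.1. The fit was tested on simulated data. Members and lists were chosen with earlier results of these data known. Named were all member probe sets, the 4 genes of smallest p per related list, a fixed set of pathway genes, and the 5 most and 3 least similar genes by correlation, of which not all those of the lists are described. Alternatives were a replicate block, other normalizations, a pseudocount, other filters, 1 probe set per gene, other variance models, array weights and arrays left out, and, chosen after seeing the data, the tumour list without Thy1 and the median without the probe set shared by Psme2 and Psme2b.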

Additional observations from a re-analysis of the deposited data

How the results depend on the processing

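No member probe set passed an adjusted p of 0.05 under any setting tried (0 in each). Psmb9 was lower in Eomes+ in all of them, which its separate groups fixed in advance where arrays were left out. Over the member probe sets, 112 differences kept their sign under settings that used all arrays and 1 turned: Tap1 1416016_at, at -0.049 log2 with array weights. Many of the 112 could not have turned. The replicate block, the other filters, 1 probe set per gene and the fit without the intensity trend leave each difference as it was. Only the other normalizations, the pseudocount and array weights could move one. With arrays left out 105 kept it and 12 turned, within these ranges: B2m 1452428_a_at -0.044 to 0.020, Tap1 1416016_at -0.019 to 0.043, Tapbp 1421812_at -0.21 to 0.020, Psme1 -0.023 to 0.079 and Nlrc5 -0.16 to 0.52 log2. The ratio differences ranged from -0.081 to 0.24 (Psmb8 to Psmb5), -0.37 to 0.0096 (Psmb9 to Psmb6) and 0.13 to 0.57 (Psmb10 to Psmb7), and the median over the 10 genes from -0.090 to -0.0012.

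Over all probe sets the count past the adjusted threshold was 0, and 74 with array weights. The count at an unadjusted p under 0.05 was 936. It was 1462 without a filter, 562 with the filter at the 60th percentile, 409 with 1 probe set per gene (45037, 18567 and 12571 probe sets tested) and 6270 with array weights. With arrays left out it ranged from 292 (without both arrays of replicate 2) to 1806 (without both of replicate 3), with 480 without Eomes- replicate 2 and 1599 without Eomes- replicate 3. Of the 13 member probe sets, 1 had an unadjusted p under 0.05, 0 without the intensity trend, 3 with array weights and 0 to 2 with arrays left out. Over all 27766 probe sets the count was 962 without the intensity trend and 6270 with array weights, so the 3 stand beside a much larger count overall. Of the 13 member probe sets 9 had a lower mean in Eomes+, and 7 to 11 with arrays left out. It was 5 with 1 probe set per gene, where 9 genes are counted and the probe set shared by Psme2 and Psme2b is left out. Apart from these fewer probe sets, the cause was not tested.

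The main test did not take the arrays as pairs by number, and differences by replicate number are given as description. Over 27766 probe sets, arrays sharing number 1, 2 or 3 had deviations that correlated at 0.665, 0.0949 and 0.691. Eomes- replicate 2 was closer to Eomes+ replicate 1 (0.372). Eomes+ replicate 2 was closest to Eomes- replicate 2, with -0.0551 and -0.00758 for Eomes- replicates 1 and 3. Whether the numbers mark pairs is thus not settled. With the replicate block limma called 0 probe sets, with 2748 at an unadjusted p under 0.05, and gave Psmb9 an adjusted p of 0.324. Dim probe sets near background, and B2m near the top of the scale, limit what the differences can show.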
